A study of Mus musculus with 36 samples.

Results

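The 9 genes at the core of the Hedgehog pathway (Shh, Ihh, Dhh, Ptch1, Smo, Gli1, Gli2, Gli3 and Sufu) were examined in a ChIP-seq experiment for PAX6, a transcription factor with a paired domain and a homeodomain. They were chosen by name from among 22350 protein-coding genes on chromosomes 1 to 19 and X. Every peak whose centre lay in the gene body or within 100 kb of it was assigned to the gene, and all 9 symbols were found in the annotation (GENCODE M1 on mm9). The chromatin came from enteric precursor cells (EPCs), neural crest-derived cells that were grown in primary culture as neurosphere-like bodies (NLBs) from the ganglionic gut of CD1 mice at postnatal day 7. All libraries came from these cells, with no second genotype or treatment. PAX6 was precipitated with 3 µg of antibody in 4 libraries of pool 1, 6 of pool 2 and 6 of pool 3, each pool with as many input libraries, and 4 libraries with mouse IgG, all labelled as pool 1, served as the negative control. The libraries of a group were merged before peaks were called, which left 1 peak list per group, so the 3 pools were the only repeats and the spread between libraries is unknown. The number of mice behind each pool is not given in the sources used here, and a peak list cannot show whether markers of EPCs were expressed.

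Hedgehog ligands are secreted proteins that bind the receptor Ptch1 and thereby release Smo, a membrane protein that Ptch1 otherwise holds inactive. Active Smo lets the GLI transcription factors reach the nucleus as activators, whereas Sufu binds and restrains them. In the gut, Shh and Ihh are made by the epithelium and act on the mesenchyme and on neural crest-derived cells around it, and the pathway takes part in the patterning of the enteric nervous system.

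The PAX6 lists held 491 peaks in pool 1, 1032 in pool 2 and 724 in pool 3, and the IgG list held 1007. Each peak carried a score, which is 10 times the negative log10 of its MACS p-value, and each list ended just above a score of 50. A gene without a peak is therefore a gene at which none was called above that limit, not one shown to be unbound. Scores depend on sequencing depth, for which the paper gives total reads but none by pool. The lists hold no read counts either, so a peak was ranked only against its own list.

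PAX6 peaks were found at 3 of the 9 Hedgehog genes, namely Dhh, Ptch1 and Gli2. All 4 of these peaks came from pool 2, and neither pool 1 nor pool 3 had a peak in any of the 9 windows. One ligand gene, Ihh, had an IgG peak and no PAX6 peak. Among all protein-coding genes, 17.5% had a PAX6 peak of any pool in the same window. The share was 4.25% in pool 1, where 0 of the 9 genes had a peak, 8.08% in pool 2, where 3 had one, and 6.84% in pool 3, where 0 had one. For IgG it was 8.63%, beside 1 of the 9. Since 1 gene makes 11.1% of the 9, the counts are coarse beside these shares, and the difference was not tested.

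**Figure D1:**
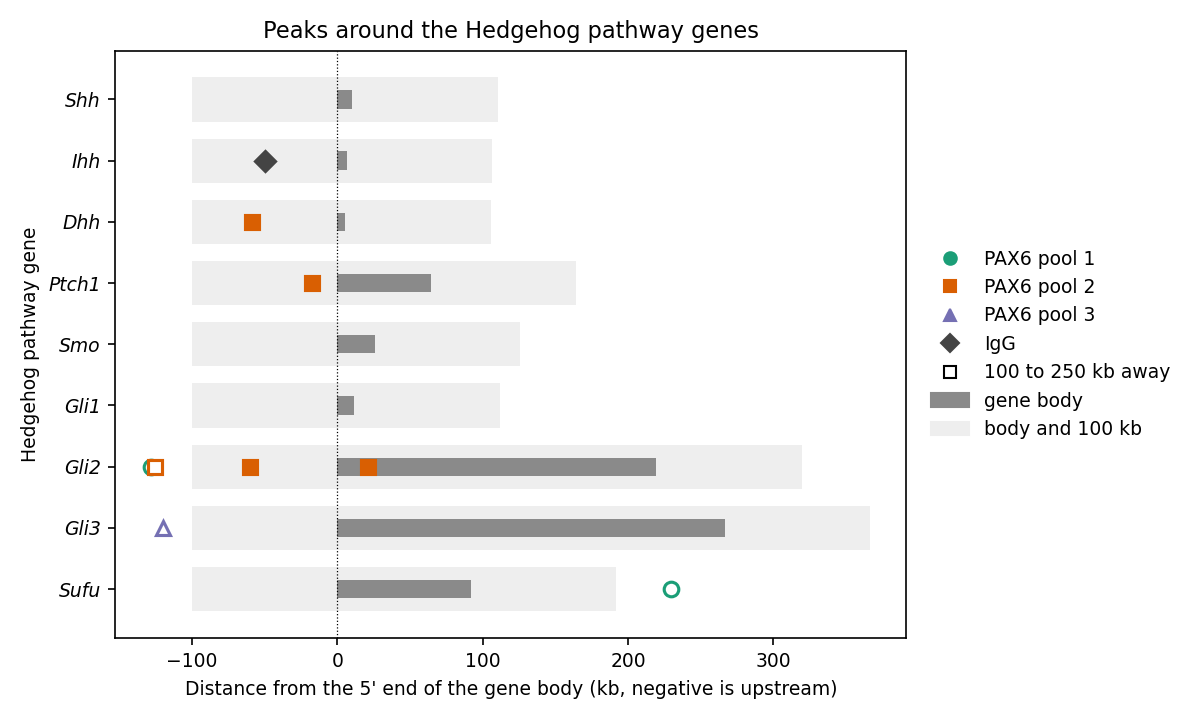
Peaks around each Hedgehog gene by distance (kb) from the 5′ end of the gene body, with upstream negative, the gene body as a dark bar and the window of 100 kb on either side as a light bar. The filled squares of pool 2 lie at Dhh, Ptch1 and Gli2, the IgG diamond lies at Ihh, and the open symbols between 100 and 250 kb from the gene body lie at Gli2, Gli3 and Sufu.

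The DNA under these peaks is shown because simple repeats are visible in it by eye. Printed are 300 bases of the PAX6 peaks at Dhh and Gli2, of the stronger peak just beyond the Gli2 window and of the IgG peak, from the plus strand of mm9. Capitals mark perfect repeats of a unit of 2 or 3 bases that run for at least 12 bases.
Dhh pool 2 peak, chr15:98787277-98787576: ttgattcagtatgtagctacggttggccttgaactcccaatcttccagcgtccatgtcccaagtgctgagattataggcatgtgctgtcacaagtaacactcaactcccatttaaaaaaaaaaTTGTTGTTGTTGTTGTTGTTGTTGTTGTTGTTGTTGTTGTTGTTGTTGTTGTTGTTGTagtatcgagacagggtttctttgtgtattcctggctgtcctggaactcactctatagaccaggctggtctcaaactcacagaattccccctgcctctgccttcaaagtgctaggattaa
Gli2 intron pool 2 peak, chr1:120929220-120929519: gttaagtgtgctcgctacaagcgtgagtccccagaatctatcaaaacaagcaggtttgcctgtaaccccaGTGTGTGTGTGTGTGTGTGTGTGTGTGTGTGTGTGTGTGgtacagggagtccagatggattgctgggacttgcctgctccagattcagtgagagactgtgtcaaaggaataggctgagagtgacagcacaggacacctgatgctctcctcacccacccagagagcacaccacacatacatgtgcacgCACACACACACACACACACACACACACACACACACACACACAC
Gli2 upstream pool 2 peak, chr1:121010336-121010635: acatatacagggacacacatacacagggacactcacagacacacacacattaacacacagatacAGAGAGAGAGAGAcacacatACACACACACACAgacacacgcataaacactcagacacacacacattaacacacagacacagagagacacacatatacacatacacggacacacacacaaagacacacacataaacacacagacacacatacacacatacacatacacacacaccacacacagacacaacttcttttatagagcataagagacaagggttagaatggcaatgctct
Gli2 distal pool 2 peak, chr1:121075067-121075366: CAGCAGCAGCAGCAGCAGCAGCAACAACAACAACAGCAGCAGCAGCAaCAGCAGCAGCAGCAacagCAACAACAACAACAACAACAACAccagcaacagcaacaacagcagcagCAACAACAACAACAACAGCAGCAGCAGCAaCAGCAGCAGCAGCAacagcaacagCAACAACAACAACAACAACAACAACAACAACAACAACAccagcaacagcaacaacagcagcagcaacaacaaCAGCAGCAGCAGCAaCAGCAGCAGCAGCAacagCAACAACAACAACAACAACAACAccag
Ihh IgG peak, chr1:75047581-75047880: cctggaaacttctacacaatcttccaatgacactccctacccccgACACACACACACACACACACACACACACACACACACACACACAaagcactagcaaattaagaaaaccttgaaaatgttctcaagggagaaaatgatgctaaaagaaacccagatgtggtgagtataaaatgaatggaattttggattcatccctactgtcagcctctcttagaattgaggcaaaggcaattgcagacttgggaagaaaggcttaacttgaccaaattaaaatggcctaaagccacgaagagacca

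Dhh encodes desert hedgehog, the ligand best known from Schwann cells of peripheral nerves and from the testis. Its peak lay at chr15:98787251-98787603, 58.5 kb upstream of the gene and between genes. The score of 132.45 was rank 55 of 1032, above 94.0% of pool 2, and 8 peaks of the list shared that value. This was the only one of the 4 PAX6 peaks in the upper part of its list. The peak of 353 bp was shorter than the list's median of 434.5 bp. Dhh was not the gene nearest to it: the start of Tuba1a, an alpha-tubulin gene, was 3.44 kb away, and the peak fell in the windows of 9 protein-coding genes, of which Dhh was the fifth closest. A TTG repeat of 58 bp lay over the peak's centre, with its own midpoint 2 bp away, and took 16.4% of the peak. Measured from this peak, the nearest pool 1 peak was 939 kb away, the nearest pool 3 peak 549 kb and the nearest IgG peak 214 kb.

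Shh encodes sonic hedgehog, the ligand of the gut epithelium, and it was the Hedgehog gene farthest from any PAX6 peak. Its nearest one was 2034 kb away, in Cib4 (pool 2, score 77.53, rank 360), and 95.1% of protein-coding genes had a PAX6 peak closer than that. The nearest pool 3 and pool 1 peaks were at 3925 and 7722 kb, whereas the nearest IgG peak, in Paxip1, was at 700.0 kb.

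Ihh encodes Indian hedgehog, the other ligand of the gut epithelium. The IgG peak in its window, chr1:75047483-75047979, lay 49.5 kb upstream in intron 2 of Nhej1, a gene of DNA end joining, and had a score of 66.31 (rank 486 of 1007). It held an AC repeat of 43 bp. The closest PAX6 peak to Ihh was one of pool 3 at 1066 kb (score 154.63, rank 128), and 80.8% of protein-coding genes had one closer. The nearest pool 2 and pool 1 peaks were at 1445 and 4582 kb. Of the 3 ligand genes, then, one had a PAX6 peak, one an IgG peak and one neither.

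Ptch1 encodes the receptor and is itself a transcriptional target of the pathway. Its pool 2 peak lay 17.2 kb upstream and had Ptch1 as its nearest start site. The score of 65.19 was rank 721, above 30.0% of the list, and therefore below the list's median of 68.98. The peak was also in the window of Fancc, a Fanconi anaemia gene. The other lists had none in the window. Measured from that peak, the closest peaks of pool 1, pool 3 and IgG all lay at 1 locus 601 kb away, near Habp4, where the 3 overlapped (scores 79.66, 114.11 and 77.93). Measured from the gene body, the nearest pool 3 and IgG peaks were at this locus (618 kb), and the nearest pool 1 peak was on the other side, 614 kb downstream near Fbp1 (score 58.16).

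Smo encodes the transducer that the receptor controls, and it had no peak. Its nearest PAX6 peak was one of pool 3 at 888 kb, with a score of 202.49 (rank 43 of 724), beyond the 3′ end of the gene and nearest to the start of Tsga14. The nearest peaks of pool 1, pool 2 and IgG were all more than 1 Mb away, at 1265, 1312 and 1148 kb. A PAX6 peak was closer for 75.0% of protein-coding genes.

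Gli2, which encodes the main GLI activator, was the only Hedgehog gene with a PAX6 peak in its body and the only one with more than 1 peak. The first, chr1:120929038-120929541, lay in intron 1 of 13, 20.9 kb downstream of the 5′ end, with a score of 63.17 (rank 785, above 23.9% of pool 2). The other, chr1:121010259-121010712, lay 60.3 kb upstream with a score of 65.4 (rank 714, above 30.8%). Both were in the lower part of the list, they stood 81.2 kb apart, and no other protein-coding gene had either in its window. The intronic peak held a GT repeat of 39 bp and a CA repeat of 43 bp. The upstream peak had only an AG and an AC repeat of 13 bp each that were perfect, within a longer CA-rich stretch that single changes interrupt.

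Just beyond the limit of 100 kb, Gli2 had a higher scoring peak. The pool 2 peak chr1:121074981-121075718 was 125 kb upstream, 738 bp wide, with a score of 150.78 (rank 41, above 96.0% of the list). A pool 1 peak, chr1:121077868-121078342, lay 128 kb upstream with a score of 54.84 (rank 392 of 491). These 2 peaks did not overlap and were separated by 2149 bases, and both had Gli2 as their nearest start site. The pool 2 peak was made of CAA and CAG units over 52.7% of its length. Gli2 was thus the only Hedgehog gene with peaks of more than 1 pool within 250 kb. The share of protein-coding genes with such peaks was not counted, and a body of 219 kb makes its window a wide one. Its nearest pool 3 peak, in Ralb, was 435 kb away and its nearest IgG peak 827 kb.

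Gli1, a GLI activator and a transcriptional target of the pathway, had no peak within 100 kb. A pool 2 peak was 388 kb away (score 65.19, rank 721, nearest to Ctdsp2) and a pool 3 peak 407 kb away (score 175.6, rank 82, nearest to Xrcc6bp1). The nearest IgG peak was at 648 kb and the nearest pool 1 peak at 4091 kb. For 48.1% of protein-coding genes a PAX6 peak was closer, which put Gli1 near the middle of all genes.

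Gli3, the main GLI repressor, has the longest body of the 9 genes (267 kb) and yet had no peak in it. A pool 3 peak, chr13:15435214-15435485, lay 120 kb upstream and so just outside the window, with a score of 54.62 (rank 684 of 724, above 5.52% of the list). It held CA and CT repeats over 51.5% of its 272 bp. The nearest pool 2 and pool 1 peaks were at 538 and 891 kb, and the nearest IgG peak was at 2885 kb.

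Sufu, the inhibitor of the GLI proteins, had no peak in the window either. A pool 1 peak, chr19:46700962-46701538, lay 138 kb downstream with a score of 57.16 (rank 358 of 491). It fell in D19Wsu162e, 3359 bp from that gene's start. The nearest pool 2 peak was at 747 kb, the nearest IgG peak at 504 kb and the nearest pool 3 peak at 2268 kb.

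**Figure D2:**
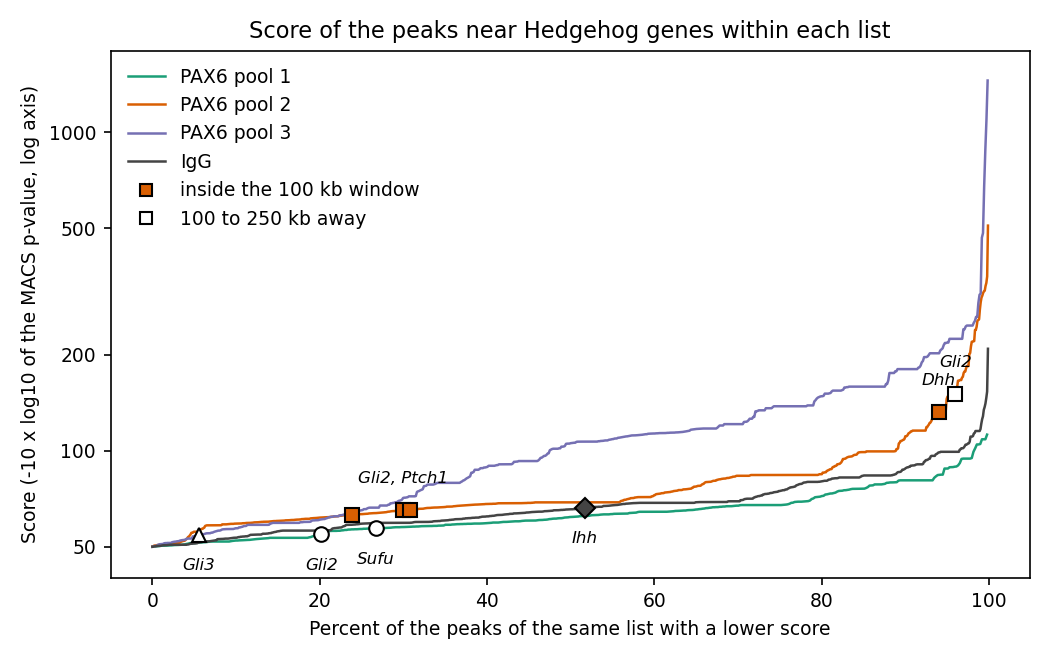
Score (log axis) of every peak against the percent of its own list with a lower score, as 1 line per list, with the peaks at Hedgehog genes as filled symbols and those 100 to 250 kb away as open symbols. Of the filled pool 2 squares, the one at Dhh (132.45) stands high in its list and the other 3 lie between 63.17 and 65.4, under the median of 68.98.

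Gene size moved with these counts. Of protein-coding genes with a body of at least 50 kb, 26.0% had a PAX6 peak in the window, beside 2 of the 4 Hedgehog genes of that size (Ptch1 and Gli2). Of shorter genes 15.2% had one, beside 1 of 5 (Dhh). The 9 windows covered 2.50 Mb and held 1.60 PAX6 peaks per Mb, beside 0.841 per Mb over the chromosomes, a density at which 2.10 peaks would fall in them. For IgG the values were 0.400 and 0.381 per Mb. The PAX6 density in the windows came from pool 2 alone, with 4 peaks where its own density would give 0.965. Pools 1 and 3 had 0 where theirs would give 0.464 and 0.675. The median distance from gene body to the nearest PAX6 peak was 138 kb for the 9 genes and 415 kb for protein-coding genes, with Hedgehog genes from 0 kb (Gli2) to 2034 kb (Shh).

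The share of Hedgehog genes with a PAX6 peak stood above that of all genes at each distance up to 500 kb and not at 1000 kb. In the gene body alone 1 of the 9 had a PAX6 peak, beside 3.11% of protein-coding genes. At 25 kb there were 2, beside 6.65%, and at 250 kb there were 5, beside 35.3%. At 1000 kb 77.8% of the Hedgehog genes and 78.8% of protein-coding genes had one.

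**Figure D3:**
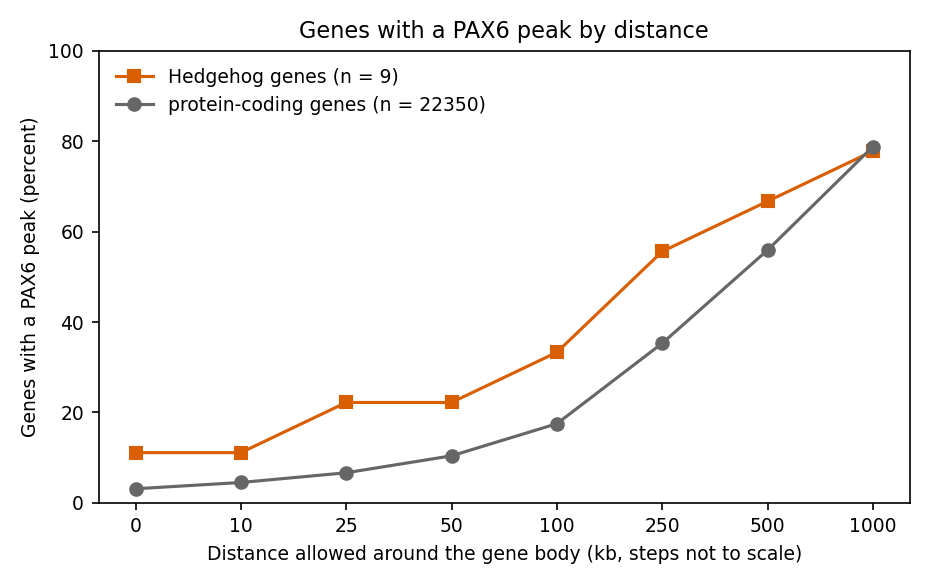
Percent of genes with a PAX6 peak of any pool against the distance allowed around the gene body (kb, steps not to scale), for the 9 Hedgehog genes and for 22350 protein-coding genes. The line of the Hedgehog genes runs above the other up to 500 kb, where 1 gene is worth a step of 11.1 percentage points, and the lines meet at 1000 kb (77.8% and 78.8%).

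Long repeats were found under part of these peaks and under most peaks of the lists. In windows of 500 bp around the peak centre, a repeat of a 2 or 3 base unit of at least 20 bp was present at Dhh and in the Gli2 intron, and absent at the upstream Gli2 peak. Of all pool 2 peaks 73.9% held one (Wilson 95% interval 71.1 to 76.5), and of IgG peaks 64.4% (61.4 to 67.3). Of consecutive stretches of 500 bp, 8.02% held one over the chromosomes and 8.97% over the 9 windows. For CA or TG repeats alone, which Dhh lacked, the share was 56.6% in pool 2 (53.5 to 59.6), 61.8% in IgG (58.8 to 64.8) and 5.99% in the 9 windows. Such repeats thus lay under most IgG peaks as well, and their part in the calls was not tested. These intervals cover counting error only. The search took perfect units of 2 or 3 bases, so tracts of longer units were not counted. The pool 1 peak near Sufu held 0 counted repeats, yet 300 bases of it are largely GGAT and GGGT units.

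Because perfect repeats miss an interrupted tract, the share of steps from base to base that alternate C and A, or T and G, was also taken. It was 44.3% at the upstream Gli2 peak, a value that 18.9% of pool 2 peaks and 0.240% of the stretches in the 9 windows reached. The Gli2 intron (23.6%) and Dhh (20.2%) lay below the pool 2 median of 24.8% and above the median of 14.8% for stretches of the windows. The IgG peak at Ihh had 22.4%, below the IgG median of 35.1%. The distal Gli2 peak reached 51.9%, because CAA and CAG units also alternate C and A in part.

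**Figure D4:**
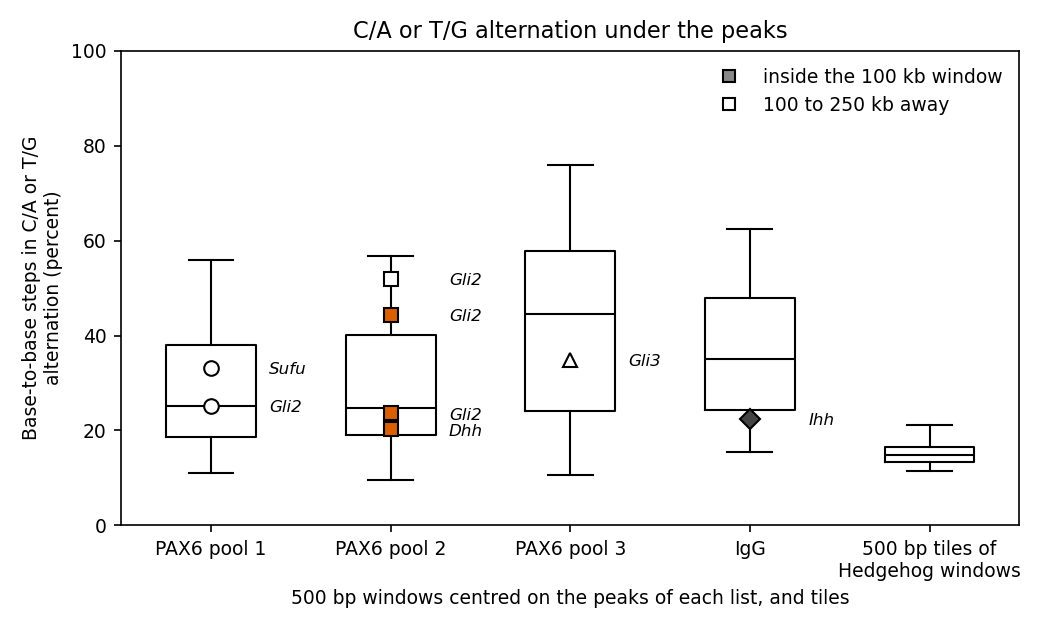
Share of base-to-base steps (percent) that alternate C and A or T and G in windows of 500 bp, with boxes for the quartiles, lines for the medians and whiskers for the 5th and 95th percentiles of each peak list and of stretches of the Hedgehog windows, and symbols for the peaks at the other Hedgehog genes than Ptch1. The 3 filled pool 2 squares run from 20.2% at Dhh to 44.3% upstream of Gli2, all above the stretches' median of 14.8%.

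Short sequence matches were then looked for on both strands of the same windows of 500 bp. TTCACGC, the core of the site of the PAX6 paired domain, was in none of the windows at Dhh, Gli2, Ihh, Gli3 and Sufu, nor was the homeodomain pair (TAAT followed by any 3 bases and ATTA) or the GLI site GACCACCCA. TTCACGC was rare everywhere, at 0.884% of pool 2 peaks, 0.994% of IgG peaks and 0.796% of stretches over the chromosomes. The homeodomain pair was in 1.28% of pool 2 peaks, 0.696% of IgG peaks and 1.75% of stretches, and the GLI site in 0.0982%, 0.298% and 0.323%. The lack of a match says only that these letters are not in these windows.

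Other genes of the pathway were taken from a list of 41, of which 13 (31.7%) had a PAX6 peak in the window, again beside 17.5% of protein-coding genes. The same share stands beside the counts by role that follow, which were not tested. They rested on 16 different peaks, with pool 1 giving 1, pool 2 giving 7 and pool 3 giving 8. The wider list thus had peaks of all 3 pools, with pool 1 at 2 genes, pool 2 at 7 and pool 3 at 8. The shares of protein-coding genes were 4.25%, 8.08% and 6.84%. The 9 core genes are too few to be compared with the wider list by pool. IgG peaks lay at 2 of the 41, beside 8.63% of protein-coding genes.

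Among 6 genes that process or release the ligands, Hhat, the acyltransferase that adds palmitate to them, had a pool 2 peak 4.11 kb upstream (score 99.17, rank 154). It also had a pool 3 peak beyond its 3′ end (180.6, rank 62) and an IgG peak (59.24). Of 7 receptors and co-receptors, Gpc3, a glypican that binds ligand, had an intronic pool 2 peak (84.05, rank 212). Lrp2, an endocytic receptor, had a pool 3 peak in an intron (79.28, rank 478) and a pool 2 peak 61.2 kb upstream (66.87, rank 667).

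Of 11 genes of the cilium, the organelle through which Smo acts, Evc, Evc2 and Ift88 had peaks. Evc and Evc2, whose products sit together at the ciliary base, lie head to head and shared 1 pool 1 peak (58.89, rank 313), which was upstream of Evc and in an intron of Evc2, 9.46 kb from its 5′ end. A pool 3 peak was also in the window of Evc (64.67, rank 546). Ift88, a carrier of intraflagellar transport, had a pool 2 peak 20.2 kb upstream (65.85, rank 700).

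Among 8 kinases and ubiquitin ligases that act on GLI proteins 4 had a PAX6 peak. Gsk3b had a pool 2 peak beyond its 3′ end (129.77, rank 68) and an intronic pool 3 peak (68.51, rank 517). Btrc, which encodes the F-box protein that marks phosphorylated GLI for the proteasome, had a pool 2 peak 37.8 kb upstream (97.4, rank 163). The kinase genes Csnk1a1 and Dyrk2 had pool 3 peaks (112.15, rank 303, and 138.11, rank 158), and Dyrk2 had 2 IgG peaks as well, 16.2 and 39.8 kb upstream. Of 9 target genes, Foxf2, a forkhead gene of the gut mesenchyme, had a pool 2 peak (66.52, rank 678). Foxl1, which the annotation holds as a pseudogene, had a pool 3 peak 73.1 kb from its 5′ end (138.94, rank 152), and Bcl2, an inhibitor of apoptosis, had an intronic one (111.31, rank 312).

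Beside the Hedgehog genes stood 2 receptor pathways of enteric neural crest cells. In the list of the receptor tyrosine kinase RET with its ligands and co-receptors, 3 of 9 genes had a PAX6 peak, the same number as among the Hedgehog genes, but 1 gene in each pool: Pspn in pool 1, Ret in pool 2 and Gfra1 in pool 3. The peak assigned to Ret (score 202.68, rank 23) ranked above the one at Dhh, but lay outside the gene, 143 kb from its 5′ end. Gfra1 had an IgG peak as well (60.56). In the endothelin list 4 of 7 genes had a PAX6 peak and none an IgG peak, which 8.63% of protein-coding genes had. The ligand gene Edn2 had a pool 2 peak (50.91, rank 1019), and Edn3 had peaks of pool 2 (72.63, rank 413) and pool 3 (78.44, rank 481). The receptor gene Ednra had a pool 3 peak (98.33, rank 381). Ednrb, the endothelin receptor of enteric precursors, had peaks of all 3 pools in its window, which no Hedgehog gene had. These peaks did not overlap. Pool 1 had one 20.6 kb upstream, pool 2 one 13.3 kb upstream and one in an intron, and pool 3 one 70.2 kb upstream. The share of protein-coding genes with peaks of all 3 pools was not counted. Both counts of genes with a PAX6 peak stand beside the 17.5% of all protein-coding genes. The differences between these short lists were not tested.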

How the data were processed

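PAX6 ChIP, input and IgG libraries of mouse EPCs were grouped by the labels. FASTQ files of a group had been merged by the authors, mapped with Bowtie to mm9 and passed to MACS for peak calling (tool versions are not given in the sources used here). Each peak has a deposited score, which is 10 times the negative log10 of its MACS p-value, and 4 lists were used (pool 1, pool 2, pool 3 and IgG). Peaks were read as intervals counted from 0, as BED files are, and placed on GENCODE M1 genes of chromosomes 1 to 19 and X. The centre of a peak had to lie in the gene body or within 100 kb of it. Named are the 9 genes with their peaks, the nearest peak of each list for genes without one, and every gene of the other lists with a PAX6 peak. The genes and lists were chosen with earlier results of these data known. Counts were described beside the same counts over 22350 protein-coding genes, with no test, since merged lists leave no spread between libraries. Windows of 500 bp around the centres of peaks on chromosomes 1 to 19 and X were searched for repeats and motifs. The depth behind each list is unknown, so the precision of a single peak is too. The window rule and the marking of planted CA repeats were checked on simulated data. Units of 3 bases and the count of peaks with repeats were not checked in this way. Alternatives were other windows, score limits, removal of peaks overlapping IgG, each pool left out, the closest start site alone, and lists of equal length. The sequence under the Ptch1 peak is not reported here. Reads, expression assays and patient data were not analysed here. The tools were samtools 1.23.1 and Python 3.11.15 with scipy 1.17.1, matplotlib 3.10.9 and numpy 2.4.6.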

Additional observations from a re-analysis of the deposited data

How the results depend on the processing

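The count of 3 Hedgehog genes with a PAX6 peak rested on pool 2. With each pool left out in turn, the genes ranged from 0 to 3, their PAX6 peaks from 0 to 4 and the share of protein-coding genes from 10.5% to 14.1%, and the values of 0 and 10.5% are those without pool 2. With no distance allowed around the gene body, or 10 kb, 1 gene with 1 PAX6 peak was left and the IgG peak was lost (0), beside 3.11% and 4.50% of protein-coding genes. At 50 kb there were 2 PAX6 peaks at 2 genes, beside 10.4% of protein-coding genes. At 250 kb there were 8 PAX6 peaks at 5 genes (Dhh, Ptch1, Gli2, Gli3 and Sufu) beside 35.3%. With scores of at least 70, or at least 100, 1 PAX6 peak at 1 gene (Dhh) and 0 IgG peaks were left, beside 8.99% and 4.32%. Cutting each PAX6 list to its 491 highest scores, a setting added once the data had been seen, also left 1 peak at 1 gene (Dhh), beside 12.1%. Assigning each peak to its closest start site alone, at any distance, gave 3 genes, with Gli3 (peak at 120 kb) in place of Dhh. The share of protein-coding genes was not counted for that setting, so this count has no background beside it. Removing PAX6 peaks that overlap an IgG peak left 4 PAX6 peaks at 3 genes, beside 17.0% of protein-coding genes. Of 45 alternative values, which include IgG counts and shares of protein-coding genes, 26 moved by over 1.5 times. No paired analysis of ChIP and input libraries was possible because the libraries of a group were merged before peaks were called. Depth limits what an absent peak means, since lists stop at a score of 50.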
